A study of Zea mays with 12 samples.

Results

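The drought effect in the kernel was compared with the drought effect in the young ear, over all genes, as the difference (drought minus control in kernel) minus (drought minus control in ear). The libraries were chosen by their labels alone, 4 of kernel and 4 of ear out of the 12 of the series. Of 34423 genes listed in any library, 33411 had at least 1 count in these 8 libraries and 24797 passed the filter on low counts and were tested. All plants were of the maize inbred line B104. The groups were kernels at 5 days after pollination (5DAP) from drought-stressed plants, kernels at 5DAP from watered control plants, young ears at the V9 stage (9 leaves) from drought-stressed plants and young ears at V9 from watered control plants. Drought meant 5 days at a low soil water content that ended when the organ was sampled, each group had 2 libraries, and each library pooled tissue of 4 plants by the study's methods. The ear and the kernel went through separate drought episodes with separate controls, so organ, stage and episode cannot be told apart in the difference.

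At V9 the young ear of maize consists mainly of inflorescence and spikelet meristems that set the number of kernel rows, whereas a kernel at 5DAP holds maternal tissue around a young endosperm and a very small embryo. Drought in plants raises abscisic acid (ABA), which binds PYR/PYL receptors, inhibits PP2C phosphatases and releases SnRK2 kinases and their bZIP factors, and it commonly brings dehydrins, chaperones and stress NAC factors. Growth of both organs rests on cell division, wall loosening and imported sucrose, which are known to be restrained when water is short.

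Values below are CPM, counts relative to library totals scaled with TMM factors, unless FPKM, which also divides by gene length, is named. Drought effects are log2 fold changes with the standard error (SE) of the fit, and the difference between organs is always kernel minus ear on the log2 scale. A gene rose, fell or differed between organs when the adjusted p of edgeR's quasi-likelihood test was under 0.001 and the absolute log2 value was at least 1. Rounded totals of the 8 libraries were between 5117208 and 5300495 counts, and 3 counts, the floor used for bounds, came to between 0.525 and 0.670 CPM. The 100 most abundant genes took 18.2% of the counts in both drought kernels, against 11.4% and 12.1% in control kernels, and between 10.7% and 11.8% in ears. The control kernels were the most dissimilar pair of replicates, with a biological coefficient of variation of 0.0905, against 0.0236 to 0.0308 in the other 3 groups. In bulk samples, fewer cells of a type and less RNA per cell cannot be told apart. The study describes the libraries of a group as biological repeats, each a pool of plants. Outside the control kernels, replicates differed little more than by counting noise (mean chi-square per gene of 1.27 to 1.37, against 3.03 in control kernels). The fit also pools the spread over groups and shares it across genes. The p-values therefore rest on this pooled spread and do not measure the variation between plants of a group.

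Most organ markers, but not all, were higher in the organ they mark. The ear meristem gene kn1, a homeobox gene that keeps meristem cells undetermined, had between 177 and 219 FPKM in ears and between 15.4 and 21.1 FPKM in kernels, and the transfer cell and embryo-surrounding genes betl1, betl2, betl3, betl4, meg1 and esr3 were at 0 in all 4 ear libraries. Against their labels, the ear marker zag1, a floral MADS gene, averaged 40.9 FPKM in drought kernels, against 55.1 FPKM in control kernels, and 17.7 FPKM in drought ears, against 16.4 FPKM in control ears. Means of the ear markers zmm2 (GRMZM2G359952) and ids1 and the kernel markers pbf1 (GRMZM2G146267), bt2 and sh2 were likewise higher in the other organ. For ids1 under drought and sh2 in controls the gap was slight. The ear marker sid1 averaged 10.3 FPKM in control kernels, against 5.18 FPKM in control ears, but was higher in ears under drought. The summed level of 18 kernel marker genes was 145 and 175 FPKM in drought kernels, against 114 and 119 FPKM in control kernels, and 71.1 and 61.8 FPKM in drought ears, against 60.2 and 62.8 FPKM in control ears. The sum of 20 ear marker genes was 294 and 289 FPKM in drought kernels, against 428 and 417 FPKM in control kernels, and 772 and 768 FPKM in drought ears, against 916 and 934 FPKM in control ears. The sum of 10 leaf marker genes moved in opposite directions, with 243 and 257 FPKM in drought kernels, against 485 and 426 FPKM in control kernels, and 298 and 296 FPKM in drought ears, against 168 and 161 FPKM in control ears. The leaf markers did not move as a set. Past the criteria, only lhcb3 and lhcb6 rose in the ear and only lhcb6 fell in the kernel. In ears ssu1 and ppdk1 averaged 8.88 and 23.7 FPKM under drought, against 8.64 and 26.6 FPKM in controls. The 3 embryo marker genes summed to at most 1.06 FPKM in every library. The ear and leaf sums moved with drought in both organs and the kernel sum in the kernel, and their part in the differences below was not tested.

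Drought changed 7117 genes in the kernel, 3510 of which rose and 3607 of which fell, or 28.7% of the genes tested (14.2% rose, 14.5% fell). In the ear it changed 1973 genes, 987 of which rose and 986 of which fell, or 7.96% (3.98% in each direction). The drought effect differed between the organs in 3717 genes, or 15.0% of those tested, and in 10349 (41.7%) at an adjusted p under 0.05 with no minimum fold. Among the 3717, the kernel value was the higher one in 1695 (6.84% of the genes tested) and the ear value in 2022 (8.15%). Positive differences were therefore 45.6% of the calls, but 24.3% when libraries were scaled by total counts without TMM factors. That scaling moved the median difference of all tested genes from near 0 to -0.31, with a median kernel effect of -0.21 and a median ear effect of 0.07. Differences are given relative to the TMM scale, on which the medians of all tested genes were -0.02 in the kernel, -0.04 in the ear and 0.003 for the difference. Every count of family members below stands against the shares of all tested genes, 28.7% in the kernel, 7.96% in the ear and 15.0% for the difference.

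The organs shared 1115 genes that moved the same way, 587 that rose in both and 528 that fell in both. Another 84 genes moved in opposite directions, 50 of which fell in the kernel and rose in the ear and 34 of which rose in the kernel and fell in the ear. Genes called in both organs were 16.8% of the kernel's changed genes and 60.8% of the ear's, and 93.0% of them had the same direction. Within the 1115 genes, the median absolute log2 fold change was 2.34 in the kernel and 1.54 in the ear, and 895 had the larger one in the kernel. The difference itself was called in 257 of them, in 242 of which the kernel effect was the larger (161 that rose and 81 that fell) and in 15 of which the ear effect was (12 that rose and 3 that fell). For 548 of the 1115 genes the adjusted p of the difference was 0.05 or more, which does not show that the organs responded alike. Across the 24797 genes, the kernel and ear effects had a Pearson r of 0.41 and a Spearman rho of 0.41. Over the 16275 genes averaging at least 50 counts these were 0.52 and 0.48. Genes are not independent replicates, and all points share the same 8 libraries.

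**Figure D1:**
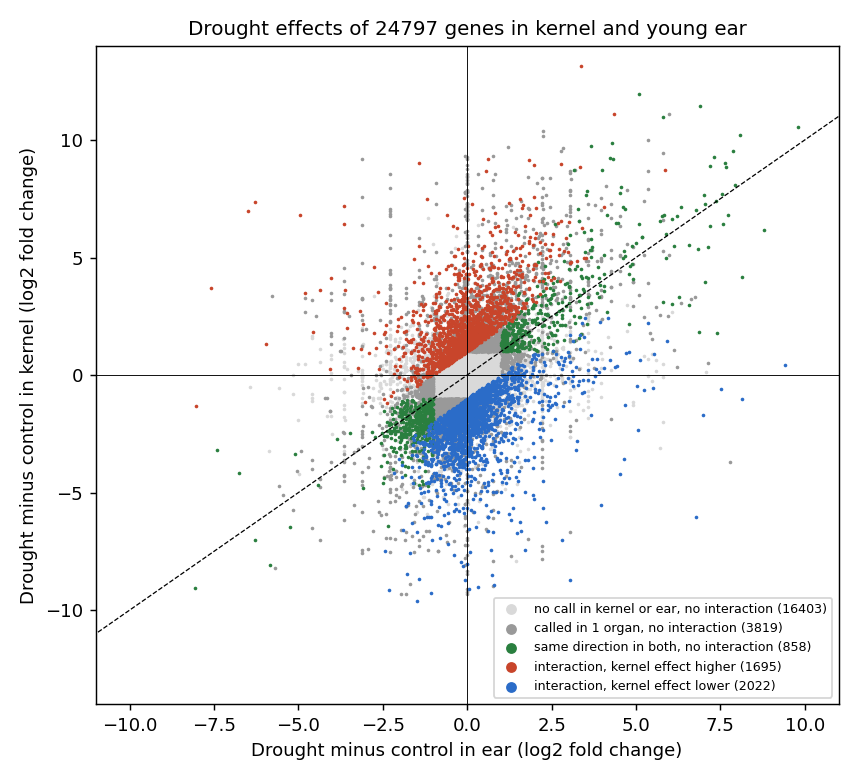
Drought effect of each tested gene in the kernel (vertical axis, log2 fold change) against that in the young ear (horizontal axis, log2 fold change), with equal effects on the dashed line. Colours mark the 1695 genes with the higher value in kernel, the 2022 with the higher value in ear and the 858 that moved the same way in both with no call on the difference, and the cloud is wider along the kernel axis (SD 1.69) than along the ear axis (SD 0.99).

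Most genes called in 1 organ alone were kernel genes, 5918 in number, against 774 called in the ear alone. A call in 1 organ was not the same as a difference between organs. Of the 2889 genes that rose in the kernel alone, 1132 had a called difference, and of the 3029 that fell in the kernel alone, 1467 had one. In the ear these were 175 of 350 genes that rose and 99 of 424 that fell. Another 503 genes had a called difference although neither organ alone passed the criteria. Among the 5918 kernel genes, 533 had no ear library above 3 counts, and 12 of these had a called difference, so that for most genes without ear expression the difference could not be tested with any precision.

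**Figure D2:**
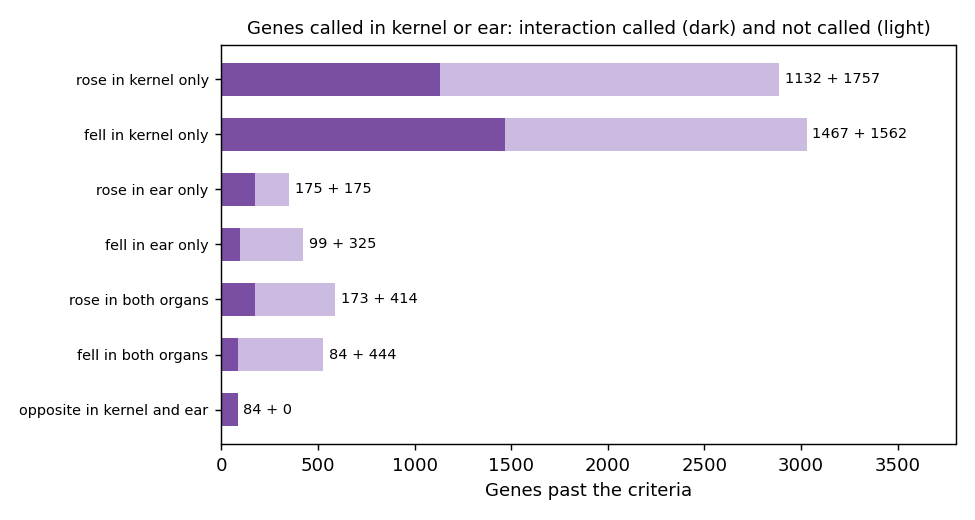
Number of genes past the criteria (horizontal axis) by direction and organ, with the part whose kernel minus ear difference was called in dark and the rest in light. The first number at each bar is the called part, which runs from 84 of 84 opposite genes to 84 of 528 genes that fell in both organs.

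The same contrast can be read as the gap between the organs, kernel minus ear, under drought against control. The gap was called in 8440 genes under drought (5064 higher and 3376 lower in kernel), against 6303 genes in controls (3996 higher and 2307 lower in kernel). Of the 3717 genes with a called difference, the organs were farther apart under drought in 2432 and closer in 1285. The gap passed the criteria only under drought in 1671 of them and only in controls in 786. It lay on the same side in both treatments in 564, on opposite sides in 207 and passed in neither treatment in 489. The group of 207 therefore changed which organ had the higher level.

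Genes that moved strongly in both organs with no call on the difference included stress genes that were close to silent in watered plants. GRMZM2G166776, which carries no name, had 184 and 189 CPM in drought kernels, against 0.771 and 0.57 CPM in control kernels, and 176 and 198 CPM in drought ears, against 0.184 and 1.31 CPM in control ears. Drought and control libraries did not overlap in either organ, and the kernel minus ear difference was 0.14 ± 0.77 (edgeR adjusted p 0.91). A homolog of Arabidopsis HSFC1, a class C heat shock factor (GRMZM2G105348), had 127 and 149 CPM in drought kernels, against 1.74 and 0.759 CPM in control kernels, and 98.1 and 111 CPM in drought ears, against 0.92 and 1.87 CPM in control ears. All 4 drought libraries lay far above all 4 control libraries, and the difference was 0.56 ± 0.60 (edgeR adjusted p 0.479). GRMZM2G154747, without a named product, was at 0 in all 4 control libraries and rose to 34.2 and 37.4 CPM in drought kernels and 23.2 and 19.8 CPM in drought ears. Against the floor of 3 counts per library it was at least 62.3-fold higher in drought kernels and at least 38.5-fold higher in drought ears. By the same bounds, a homolog of the small heat shock protein HSP22.0 (GRMZM2G331701) was at least 49.9-fold higher in drought kernels and at least 11.6-fold higher in drought ears. A homolog of ferredoxin 3, an electron carrier of plastids (GRMZM2G063126), was at least 94.9-fold higher in drought kernels and at least 8.81-fold higher in drought ears. AC233879.1 had the larger bound in the ear, at least 88.6-fold in drought ears against at least 30.5-fold in drought kernels. Bounds of this kind do not rank the organs.

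The 5 genes that fell most in both organs fell to the floor or near it. Among them, a CWINV2 homolog (GRMZM2G095725), for a cell wall invertase that splits imported sucrose in the apoplast, was at 0 in all 4 drought libraries, against 13.3 and 12.1 CPM in control kernels and 5.70 and 7.12 CPM in control ears. It was at least 19.0-fold lower in drought kernels and at least 12.2-fold lower in drought ears. A homolog of the xylem cysteine peptidase XCP2, which acts in the death of vessel cells (GRMZM2G367701), had 0.67 and 1.33 CPM in drought kernels, against 27.96 and 24.9 CPM in control kernels, and 0.175 and 0.35 CPM in drought ears, against 5.70 and 6.56 CPM in control ears. Both organs fell without overlap with their controls, and the difference was -0.26 ± 0.94 (edgeR adjusted p 0.914). Of 3 genes without a named product, GRMZM2G094639 had 0.223 and 0 CPM in drought kernels, against 11.6 and 12.2 CPM in control kernels. It had 0.878 and 0 CPM in drought ears, against 16.7 and 18.6 CPM in control ears. GRMZM2G463983 and GRMZM2G388453 had at most 0.175 CPM in any drought library, and their control libraries lay between 5.998 and 6.81 CPM and between 1.12 and 3.80 CPM.

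Most heat shock proteins, found by their symbols, rose in both organs. Of 10 tested members, 8 rose and 1 fell in the kernel and 9 rose in the ear, with median log2 fold changes of 2.54 in the kernel and 2.40 in the ear, while the median difference was 0.33, or -0.35 without ear control replicate 1, with 2 members higher in kernel and 1 lower. The members higher in kernel were hsp26 and hsp18c (GRMZM2G034157). The class II gene hsp18c rose in both organs, with a difference of 1.94 ± 0.29 (edgeR adjusted p 6.98e-06), or 1.71 without ear control replicate 2. The plastid small heat shock protein hsp26 (GRMZM2G149647) had 67.4 and 70.9 CPM in drought kernels, against 0.579 and 0.949 CPM in control kernels, and 9.83 and 8.40 CPM in drought ears, against 1.29 and 1.499 CPM in control ears. It rose in both organs without overlap, and the difference was 3.76 ± 0.61 (edgeR adjusted p 1.31e-05), which was 3.65 with an adjusted p of 0.00109 when ear control replicate 2 was left out. Outside the 10, the class II small heat shock gene GRMZM5G899188, which has no symbol, was at 0 in both control kernels. It was at 243 and 194 CPM in drought kernels, at least 380-fold higher. It had 59.9 and 51.6 CPM in drought ears, against 2.94 and 7.87 CPM in control ears, and the difference was called. Its relative hsp18a (GRMZM2G404249) had 190.0 and 265 CPM in drought kernels, against 56.7 and 43.7 CPM in control kernels, and 22.5 and 30.6 CPM in drought ears, against 4.42 and 0 CPM in control ears, with no call on the difference, -1.38 ± 0.59 (edgeR adjusted p 0.0379). The single member lower in kernel was hsp3 (GRMZM6G199466), which had 12.1 and 11.6 CPM in drought kernels, against 42.6 and 34.5 CPM in control kernels, and between 10.7 and 12.1 CPM in all ear libraries.

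Heat shock factors, the activators of these genes, had fewer members past the criteria. Of 10 members found by symbol, 3 rose and 1 fell in the kernel and 2 rose in the ear. Of all tested genes, 28.7% passed in the kernel and 7.96% in the ear. Their median difference was 0.06, a sign that turned under another scaling. They include GRMZM2G133023, which shares the symbol Hsf05 with GRMZM2G132971 but is annotated as an aluminium-induced protein. That gene rose in both organs, with a called difference of 3.51 ± 0.41 (edgeR adjusted p 8.14e-07). The HSFC1 homolog above and the HSFB2A homolog below carry no such symbol and are not among the 10. A homolog of HSFB2A (GRMZM2G098696) had 122 and 119 CPM in drought kernels, against 28.1 and 27.1 CPM in control kernels, and 38.4 and 35.4 CPM in drought ears, against 4.97 and 4.87 CPM in control ears. It rose in both organs without overlap, and its difference of -0.77 ± 0.23 (edgeR adjusted p 0.00565) missed the criteria. The study's own list of chaperones, which was chosen on these libraries and whose direction is therefore no independent evidence, held 19 genes. Of these, 16 rose and 3 fell in the kernel and 17 rose and 2 fell in the ear, 6 differed upwards in kernel and 1 downwards. Its member GRMZM2G046382, an HSP20-like chaperone, had 1654 and 1673 CPM in drought kernels, against 126 and 127 CPM in control kernels, and 201 and 202 CPM in drought ears, against 96.4 and 94.7 CPM in control ears. Drought kernels stood apart from every other library, and the difference was 2.64 ± 0.09 (edgeR adjusted p 2.00e-17).

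Dehydrins and late embryogenesis abundant (LEA) proteins, which protect proteins and membranes in drying cells, were among the genes that rose in both organs and farther in the kernel. The dehydrin rab17 (GRMZM2G079440) had 9722 and 10130 CPM in drought kernels, against 24.1 and 22.6 CPM in control kernels, and 842 and 854 CPM in drought ears, against 14.5 and 14.8 CPM in control ears. Each organ's drought and control libraries were far apart, and the difference was 2.88 ± 0.12 (edgeR adjusted p 3.29e-15). The organs were much closer to each other in controls than under drought. The LEA gene mlg3 (GRMZM2G096475) had 805 and 778 CPM in drought kernels, against 5.79 and 5.32 CPM in control kernels, and 24.9 and 25.4 CPM in drought ears, against 0.92 and 2.06 CPM in control ears. Its difference of 3.09 ± 0.38 (edgeR adjusted p 6.53e-06) was 2.41 with an adjusted p of 0.0168 without ear control replicate 2. A low temperature and salt responsive gene, GRMZM2G179462, had 728 and 763 CPM in drought kernels, against 1.74 and 1.14 CPM in control kernels, and 9.48 and 11.02 CPM in drought ears, against 2.21 and 0.75 CPM in control ears. It rose in both organs but was high only in drought kernels, with a difference of 6.23 ± 0.53 (edgeR adjusted p 1.17e-08), or 5.27 without ear control replicate 1. The unnamed GRMZM2G031033 had 945 and 971 CPM in drought kernels, against 1.35 and 1.71 CPM in control kernels, and 133 and 139.6 CPM in drought ears, against 0.92 and 0.75 CPM in control ears, and its difference of 1.96 ± 0.51 (edgeR adjusted p 0.0104) was not called. All 11 genes of the study's list of drought response genes rose in both organs, with a median of 7.03 in the kernel and 4.06 in the ear, and 3 differed upwards in kernel. That list was chosen on these libraries for moving in all organs.

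**Figure D3:**
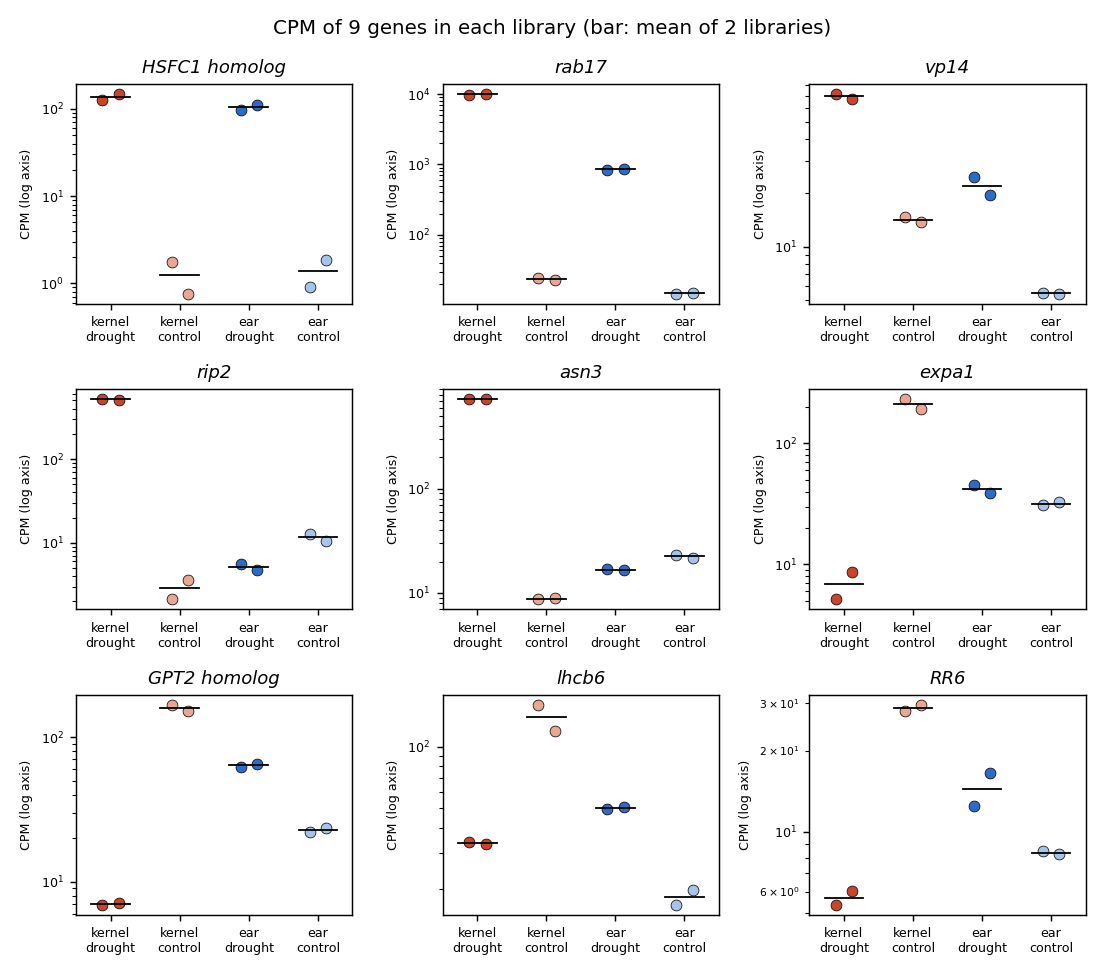
CPM of 9 genes in each of the 8 libraries (vertical log axes), with kernel groups in red and ear groups in blue, drought in dark and control in light, and a bar at the mean of 2 libraries. The HSFC1 homolog rose to about the same level in both organs, rab17 and vp14 rose in both, rip2 and asn3 rose in kernel and not in ear, expa1 fell in kernel only, and the GPT2 homolog and lhcb6 fell in kernel and rose in ear, while RR6 fell in kernel with an ear effect of 0.79 that missed the criteria.

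Genes of ABA synthesis rose in both organs with no call on the difference, and several genes of the response rose farther in the kernel. The cleavage enzyme gene vp14 (GRMZM2G014392), which makes the committed step of ABA synthesis, had 71.9 and 67.2 CPM in drought kernels, against 14.7 and 13.7 CPM in control kernels, and 24.4 and 19.4 CPM in drought ears, against 5.52 and 5.44 CPM in control ears. It rose in both organs without overlap, and the difference was 0.30 ± 0.26 (edgeR adjusted p 0.388). A beta-carotene hydroxylase homolog (GRMZM2G382534), which acts upstream in the carotenoid path, had 71.2 and 72.0 CPM in drought kernels, against 25.8 and 24.5 CPM in control kernels, and 27.9 and 25.6 CPM in drought ears, against 7.36 and 4.69 CPM in control ears. It also rose in both organs, with a difference of -0.63 ± 0.24 (edgeR adjusted p 0.0324) that was not called. The PP2C phosphatases named here, of a family that holds the pathway off and is itself ABA-induced, rose in both organs and farther in the kernel. PP2C4 (GRMZM2G177386), a homolog of HAB1, had 669 and 662 CPM in drought kernels, against 42.4 and 30.6 CPM in control kernels, and 116 and 106 CPM in drought ears, against 30.7 and 24.4 CPM in control ears. The difference was 2.18 ± 0.16 (edgeR adjusted p 6.39e-11). PP2C16 (GRMZM2G082487) and a second HAI3 homolog (GRMZM2G122228) had differences of 2.08 ± 0.30 (edgeR adjusted p 8.96e-06) and 2.93 ± 0.34 (edgeR adjusted p 1.77e-08). The value of PP2C16 was 1.75 with an adjusted p of 0.00436 without ear control replicate 2, and that of GRMZM2G122228 was 3.65 without kernel control replicate 1. XERICO (GRMZM2G018070), a RING protein that raises ABA levels in Arabidopsis, had 924 and 984 CPM in drought kernels, against 59.2 and 47.5 CPM in control kernels, and 102 and 101 CPM in drought ears, against 44.7 and 52.5 CPM in control ears. It rose in both organs, and most in drought kernels, with a difference of 3.11 ± 0.13 (edgeR adjusted p 1.19e-15).

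Some ABA receptors changed in the kernel. Of 7 tested PYL genes, 2 rose and 1 fell in the kernel, none passed the criteria in the ear, and 2 differed upwards in kernel and 1 downwards. Among all tested genes, 28.7% passed in the kernel, 7.96% in the ear and 15.0% for the difference. At that ear share, finding none among 7 genes says little about the family. GRMZM2G165567, a PYL10 homolog, had 124 and 130.1 CPM in drought kernels, against 36.1 and 24.1 CPM in control kernels, and 28.4 and 29.9 CPM in drought ears, against 31.6 and 36.2 CPM in control ears. Only drought kernels stood above the rest, and the difference was 2.29 ± 0.19 (edgeR adjusted p 3.07e-10). PYL9 (GRMZM2G048733) differed by 1.76 ± 0.23 (edgeR adjusted p 6.44e-07), with 33.7 and 41.6 CPM in drought kernels, against 17.9 and 14.1 CPM in control kernels, and between 15.1 and 22.3 CPM in ears. PYL2 (GRMZM2G134731) and GRMZM2G063882 had differences of -0.19 ± 0.20 and 0.47 ± 0.23 that were not called. A kinase of the chain and a gene outside it, for a chelatase subunit, moved the opposite way. The homolog of the SnRK2 kinase OST1 (GRMZM2G081915) fell in the kernel, with 3.57 and 4.45 CPM in drought kernels, against 20.1 and 14.6 CPM in control kernels, and had 18.8 and 16.6 CPM in drought ears, against 10.3 and 11.6 CPM in control ears. The difference was -2.80 ± 0.34 (edgeR adjusted p 9.40e-08). The ABAR homolog, for a chelatase subunit, an enzyme of chlorophyll synthesis also described as an ABA-binding protein (GRMZM2G323024), had 29.5 and 25.4 CPM in drought kernels, against 60.4 and 55.6 CPM in control kernels, and 48.6 and 53.0 CPM in drought ears, against 13.8 and 15.9 CPM in control ears. Its kernel level fell and its ear level rose, with a difference of -2.85 ± 0.19 (edgeR adjusted p 1.94e-12). The study's kernel list of ABA signaling, whose kernel direction is set by its choice, held 35 genes, 30 of which rose and 5 of which fell in the kernel. In the ear 17 rose and 1 fell, and 19 differed upwards in kernel and 4 downwards. The choice of the list bears on these differences too, called in 65.7% of it against 15.0% of all tested genes.

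Several NAC factors rose in both organs, and others rose in the kernel with no call in the ear. Among 23 tested NAC genes with NAC symbols, 10 rose and 3 fell in the kernel and 3 rose in the ear. Of the same 23, 4 differed upwards in kernel, or 17.4%, near the 15.0% of all tested genes with a called difference. The ATAF2 homologs GRMZM2G123667 and GRMZM2G068973, described below, also rose in both organs but carry no NAC symbol and are not among the 23. SNAC1 (GRMZM2G347043), a homolog of ATAF2, had 761 and 778 CPM in drought kernels, against 19.1 and 19.2 CPM in control kernels, and 65.0 and 70.9 CPM in drought ears, against 9.75 and 15.2 CPM in control ears. The difference was 2.88 ± 0.19 (edgeR adjusted p 1.15e-11). The ATAF1 homolog GRMZM2G014653 had 439.7 and 434 CPM in drought kernels, against 25.8 and 22.0 CPM in control kernels, and 31.9 and 29.8 CPM in drought ears, against 5.70 and 5.998 CPM in control ears, with a difference of 1.80 ± 0.21 (edgeR adjusted p 5.61e-07). Both genes rose in both organs and were highest in drought kernels. A second ATAF2 homolog, GRMZM2G336533, had 242 and 248 CPM in drought kernels, against 13.9 and 11.2 CPM in control kernels, and 43.2 and 30.8 CPM in drought ears, against 2.58 and 0 CPM in control ears, and its difference was -0.52 ± 0.59 (edgeR adjusted p 0.471). The third, GRMZM2G123667, leaned towards the ear, with 24.8 and 31.1 CPM in drought kernels, against 9.64 and 9.30 CPM in control kernels, and 7.20 and 8.05 CPM in drought ears, against 0.736 and 0.75 CPM in control ears and a difference of -1.76 ± 0.55 (edgeR adjusted p 0.00447) that missed the criteria. The fourth, GRMZM2G068973, was at least 8.97-fold higher in drought ears and 56.0-fold higher in drought kernels. NAC40 (GRMZM5G898290) rose in the kernel, with 70.8 and 60.7 CPM in drought kernels, against 9.06 and 8.16 CPM in control kernels, and NAC75 (GRMZM2G100583) did so as well. Ear libraries of both genes were near the floor. The difference of NAC40, 3.77 ± 0.69 (edgeR adjusted p 8.29e-05), had an adjusted p of 0.00698 without ear control replicate 2.

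A homolog of NAC047 (GRMZM2G134073) was the only named NAC factor with opposite effects. It had 86.9 and 90.0 CPM in drought kernels, against 39.3 and 30.8 CPM in control kernels, and 5.09 and 6.30 CPM in drought ears, against 15.3 and 14.1 CPM in control ears. It rose in the kernel and fell in the ear without overlap in either, and the difference was 2.70 ± 0.25 (edgeR adjusted p 1.24e-09). The boundary NAC genes, homologs of CUC2 and CUC3 that separate organs at meristems, were higher in the ear. The CUC2 homolog GRMZM2G139700 had 5.97 and 4.38 CPM in drought ears, against 11.96 and 14.2 CPM in control ears, fell in the ear and had at most 0.447 CPM in any kernel library. The CUC3 homolog GRMZM2G430522 had 0.447 and 0.222 CPM in drought kernels, against 2.12 and 3.23 CPM in control kernels, and 25.6 and 29.4 CPM in drought ears, against 61.4 and 67.1 CPM in control ears, and fell in both organs with a difference of -1.69 ± 0.85 (edgeR adjusted p 0.0534).

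Of the 6 largest differences towards the kernel among well-counted genes, 5 came mainly from a rise in the kernel, and the last, GRMZM2G181607, described with the opposite effects below, also from a fall in the ear. The ribosome-inactivating protein gene rip2 (GRMZM2G119705), a defence protein that depurinates ribosomal RNA, had 519 and 511 CPM in drought kernels, against 2.12 and 3.61 CPM in control kernels, and 5.62 and 4.72 CPM in drought ears, against 12.9 and 10.5 CPM in control ears. It rose in the kernel and fell in the ear without overlap, and the difference was 8.65 ± 0.34 (edgeR adjusted p 1.18e-17). The asparagine synthetase asn3 (GRMZM2G053669), which stores nitrogen as asparagine, had 725 and 724 CPM in drought kernels, against 8.68 and 8.92 CPM in control kernels, and 16.9 and 16.4 CPM in drought ears, against 23.2 and 21.6 CPM in control ears. Drought kernels alone were high, the ear effect of -0.43 ± 0.13 missed the criteria, and the difference was 6.78 ± 0.19 (edgeR adjusted p 1.88e-19). A natterin-4 homolog (GRMZM2G134264) had 771 and 733 CPM in drought kernels, against 1.54 and 0.949 CPM in control kernels, 604-fold higher by mean CPM. In ears its highest library had 1.23 CPM, and the difference was 8.58 ± 0.77 (edgeR adjusted p 3.21e-07), or 9.29 without ear drought replicate 1. GRMZM2G014695 and AC195596.3, neither with a named product, differed by 6.54 ± 0.43 and 6.95 ± 0.61. The first had 627 and 659 CPM in drought kernels and between 1.58 and 2.21 CPM in every ear library, and the second rose in both organs, with a difference of 6.21 without ear control replicate 2. AC199182.3 was 168-fold higher in drought kernels, with 117 and 140 CPM, and in ears it was at 0 under drought, against 1.10 and 2.62 CPM in control ears.

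Of the 6 largest differences towards the ear among well-counted genes, 5 came mainly from a steep fall in the kernel, and the last, GRMZM2G392125, described below, mainly from a rise in the ear. GRMZM2G125850, without a named product, had 3.13 and 2.89 CPM in drought kernels, against 241 and 219 CPM in control kernels, and 251 and 256 CPM in drought ears, against 88.5 and 83.4 CPM in control ears. Control kernels and drought ears were at similar levels, drought kernels were near the floor, and the difference was -7.81 ± 0.27 (edgeR adjusted p 2.46e-21). A peroxidase gene (GRMZM2G089982), of a class that acts in cell walls, had 4.47 and 2.89 CPM in drought kernels, against 343 and 352 CPM in control kernels, and 12.8 and 13.8 CPM in drought ears, against 11.8 and 14.1 CPM in control ears. Only control kernels were high, and the difference was -6.60 ± 0.30 (edgeR adjusted p 1.13e-16). GRMZM2G097884 and GRMZM2G079805, also unnamed, fell in the kernel and rose in the ear, with differences of -7.15 ± 0.29 and -7.02 ± 0.37. GRMZM2G097884 had 10.1 and 12.2 CPM in drought kernels, against 766 and 578 CPM in control kernels, and 24.2 and 24.1 CPM in drought ears, against 8.65 and 11.8 CPM in control ears. GRMZM2G068714 fell in the kernel, with 1.56 and 1.33 CPM in drought kernels, against 86.0 and 73.7 CPM in control kernels, and differed by -6.47 ± 0.55, or -7.25 without ear control replicate 2. Among genes at the floor in drought kernels, GRMZM5G805382 was at least 345-fold lower than in control kernels, where it had 272 and 189 CPM, and it had between 4.12 and 8.05 CPM in ears. AC206425.3 was at least 64.0-fold lower, with 0.447 and 0 CPM in drought kernels, against 42.2 and 43.3 CPM in control kernels. GRMZM2G092968 was at least 225-fold lower, against 149 and 153 CPM in control kernels. Its ear libraries held at most 0.350 CPM, and its difference lost the call without 6 of the 8 libraries in turn, among them ear drought replicate 2, with an adjusted p of 1.

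All 84 genes with opposite effects had a called difference, which the criteria in both organs nearly fix. The steepest pairs that fell in the kernel and rose in the ear were GRMZM2G403007, GRMZM2G392125, a MATE transporter gene (GRMZM5G842695), GRMZM2G095798 and GRMZM2G330635. The MATE gene, of a family that exports organic compounds, had 9.15 and 7.56 CPM in drought kernels, against 59.8 and 57.5 CPM in control kernels, and 9.30 and 8.93 CPM in drought ears, against 1.29 and 0.562 CPM in control ears, with a difference of -6.07 ± 0.49 (edgeR adjusted p 8.56e-13), or -6.77 without ear control replicate 1. Drought brought its kernel and ear levels close together. GRMZM2G403007 had 2.90 and 3.11 CPM in drought kernels, against 39.3 and 32.6 CPM in control kernels, and 13.3 and 11.2 CPM in drought ears, against 0.184 and 0.75 CPM in control ears, and GRMZM2G392125 rose at least 35.1-fold in the ear and fell in the kernel, with 4.91 and 4.45 CPM in drought kernels, against 26.0 and 21.4 CPM in control kernels. The steepest pairs in the other direction were GRMZM2G181607, GRMZM2G131421, GRMZM2G014705 and GRMZM2G116858 with AC199182.3. GRMZM2G181607 had 30.6 and 28.9 CPM in drought kernels, against 4.24 and 3.99 CPM in control kernels, and 3.51 and 4.55 CPM in drought ears, against 50.6 and 50.2 CPM in control ears, with a difference of 6.48 ± 0.32 (edgeR adjusted p 3.67e-16). GRMZM2G131421 mirrored it at lower levels, with 15.8 and 20.2 CPM in drought kernels, against 1.54 and 1.33 CPM in control kernels, and 1.05 and 1.05 CPM in drought ears, against 13.8 and 12.6 CPM in control ears. The ear fall of GRMZM2G116858 rested on ear control replicate 1, with 17.1 CPM against 0.375 CPM in replicate 2, and without that library the difference was 7.28 with an adjusted p of 0.00553.

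Cell wall and cytoskeleton families fell in the kernel and mostly not in the ear. All 11 tubulins, the subunits of microtubules, fell in the kernel and 1 fell in the ear, with medians of -2.09 in the kernel, -0.80 in the ear and -1.36 for the difference, called in 6. The beta tubulin GRMZM2G133802 (tub5, tub8) had 65.0 and 62.7 CPM in drought kernels, against 622 and 615 CPM in control kernels, and 289 and 292 CPM in drought ears, against 532 and 535 CPM in control ears. Drought kernels were lowest of all groups, and the difference was -2.40 ± 0.09 (edgeR adjusted p 1.17e-16). The beta tubulin tub6 (GRMZM2G071790) had 227 and 222 CPM in drought kernels, against 904 and 900.4 CPM in control kernels, and between 326 and 360 CPM in ears. Of 11 cellulose synthases, 9 fell in the kernel and 1 in the ear, and 6 differed, with medians of -2.31 in the kernel and -0.08 in the ear. The primary wall gene cesa8 (GRMZM2G177631) had 113 and 107 CPM in drought kernels, against 625 and 597 CPM in control kernels, and 206 and 214 CPM in drought ears, against 168 and 176 CPM in control ears, with a difference of -2.76 ± 0.10 (edgeR adjusted p 2.32e-17). Drought brought its kernel level below that of the ear, which it had exceeded in controls. The secondary wall homolog cesa11 (GRMZM2G055795) fell to 1.56 and 0.889 CPM in drought kernels, against 61.9 and 59.99 CPM in control kernels. Its difference was -4.77 ± 0.69 (edgeR adjusted p 4.72e-06), or -4.27 with an adjusted p of 0.00249 without ear drought replicate 1. The glucan synthase homolog GRMZM2G110145, not among the 11 cellulose synthases, moved in opposite directions, with 95.6 and 86.7 CPM in drought kernels, against 695 and 552 CPM in control kernels, and 163 and 157 CPM in drought ears, against 68.6 and 70.5 CPM in control ears and a difference of -3.98 ± 0.14 (edgeR adjusted p 1.18e-17).

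Expansins, which loosen walls without cutting them, had the lowest median difference of the families plotted. Of 11 tested, 9 fell and 1 rose in the kernel and 1 fell and 1 rose in the ear. The median difference was -2.12, with 6 lower in kernel. The gene expa1 (GRMZM2G339122) had 5.14 and 8.67 CPM in drought kernels, against 233 and 192 CPM in control kernels, and 45.6 and 38.9 CPM in drought ears, against 30.9 and 32.8 CPM in control ears. Control kernels were far above the other groups, and the difference was -5.34 ± 0.26 (edgeR adjusted p 4.48e-16). EXPA5 (GRMZM2G361064) had 75.7 and 73.8 CPM in drought kernels, against 266 and 216 CPM in control kernels, and 94.8 and 93.5 CPM in drought ears, against 38.5 and 33.2 CPM in control ears, and so fell in the kernel and rose in the ear, with a difference of -3.08 ± 0.15 (edgeR adjusted p 6.69e-15). The expansin B4 homolog GRMZM2G056236, which carries no expansin symbol and is not among the 11, did likewise. It had 40.4 and 41.6 CPM in drought kernels, against 109.9 and 98.5 CPM in control kernels, and 5.44 and 7.88 CPM in drought ears, against 1.10 and 1.31 CPM in control ears and a difference of -3.79 ± 0.44 (edgeR adjusted p 4.24e-09). The gene expa2 (GRMZM2G105844) differed by -2.91 ± 0.12 (edgeR adjusted p 3.69e-16), with an ear effect of 0.89 ± 0.07 under the fold minimum. A second expansin B4 homolog, GRMZM2G026956, also not among the 11, rose in the kernel, with 56.9 and 60.5 CPM in drought kernels, against 7.13 and 5.505 CPM in control kernels, and was at the floor in ears. The wall-modifying xth1 (GRMZM2G119783) fell in the kernel, with 8.71 and 9.34 CPM in drought kernels, against 43.6 and 33.6 CPM in control kernels, and was near the floor in ears.

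**Figure D4:**
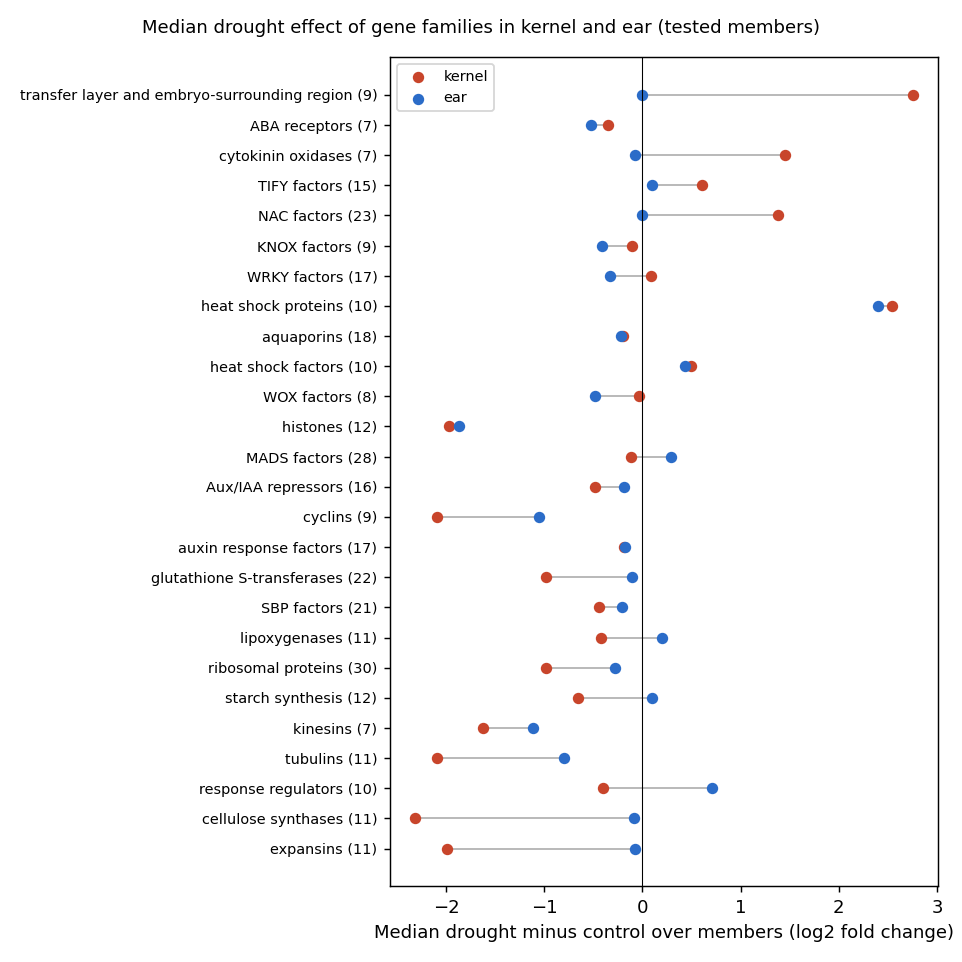
Median log2 fold change under drought over the tested members of each gene family (number of members in brackets), in kernel (red) and ear (blue), ordered by the median kernel minus ear difference. Heat shock proteins and histones have nearly the same median in both organs, whereas cellulose synthases, expansins and tubulins lie lower in kernel. The transfer layer and embryo-surrounding genes have medians of 2.75 in kernel and 0 in ear, where betl1, betl2 and esr3 were at 0 in every library. The filter on low counts kept 9 of 13 of these genes and shaped their kernel median.

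Most histones fell in both organs. Of 12 tested, 9 fell in the kernel and 9 in the ear, 8 of them the same genes, with medians of -1.97 in the kernel and -1.87 in the ear. In his2a1 (GRMZM2G305046), a histone H2A gene, counts were 39.5 and 44.9 CPM in drought kernels, against 278 and 252 CPM in control kernels, and 405 and 405 CPM in drought ears, against 1609 and 1683 CPM in control ears. Control ears were highest and drought kernels lowest, with a difference of -0.63 ± 0.11 (edgeR adjusted p 2.83e-05). Of the 12, a single gene had a called difference. Some histones named next come instead from the study's list of nucleosome genes, whose ear direction is set by its choice. The linker histone hon101 (GRMZM2G080274) had a called difference, with 297 and 307 CPM in drought kernels, against 218 and 182 CPM in control kernels, and 483 and 503 CPM in drought ears, against 1225 and 1235 CPM in control ears. The ear alone fell, and the difference was 1.91 ± 0.10 (edgeR adjusted p 2.08e-14). The H2A gene GRMZM2G050833 and histone2b1 (GRMZM2G071959) shared this pattern, with differences of 1.53 ± 0.12 and 1.51 ± 0.10. The study's list of nucleosome genes, chosen for their fall in the ear, held 30 genes, 25 of which fell in the kernel too, and 3 differed. The ear marker sum, which was lower under drought in both organs, moved beside these falls, and its part in them was not tested.

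Cyclins and kinesins of dividing cells fell in part. Of 9 cyclins, 5 fell and 1 rose in the kernel and 5 fell in the ear, and of 7 kinesins 5 fell in the kernel and 4 in the ear. Of all tested genes, 14.5% fell in the kernel and 3.98% in the ear. In both organs 4 of the cyclins and 3 of the kinesins fell. Cyclin D3;1 (GRMZM2G161382), which carries cells into DNA synthesis, had 4.69 and 3.33 CPM in drought kernels, against 21.6 and 16.3 CPM in control kernels, and 70.9 and 83.7 CPM in drought ears, against 155 and 166 CPM in control ears. It fell in both organs, and its difference of -1.18 ± 0.30 (edgeR adjusted p 0.00124) missed the criterion on p. The D3;2 homolog GRMZM2G107377 differed by -1.89 ± 0.41 (edgeR adjusted p 1.07e-04), which was -1.59 with an adjusted p of 0.00892 without kernel drought replicate 2. Cyclin D1 (GRMZM2G006721) had 4.02 and 4.002 CPM in drought kernels, against 24.5 and 24.7 CPM in control kernels, and 47.2 and 44.8 CPM in drought ears, against 50.03 and 56.0 CPM in control ears, and fell only in the kernel, with a difference of -2.40 ± 0.27 (edgeR adjusted p 8.59e-09). Cyclin D2 (GRMZM2G075117) rose only in the kernel, with 204 and 205 CPM in drought kernels, against 88.5 and 96.1 CPM in control kernels, and between 46.6 and 56.6 CPM in ears. The kinesin krp13 (GRMZM2G034828), a homolog of a motor of the phragmoplast, had 7.59 and 5.56 CPM in drought kernels, against 43.0 and 40.1 CPM in control kernels, and 85.3 and 75.2 CPM in drought ears, against 250.0 and 257 CPM in control ears, with no call on the difference. Of 30 ribosomal protein genes, 13 fell in the kernel and 2 in the ear, and 6 differed, all lower in kernel. Among them, rps4 (GRMZM2G035017) had 116 and 108 CPM in drought kernels, against 238 and 242 CPM in control kernels, and 398 and 402 CPM in drought ears, against 349.7 and 371 CPM in control ears. Only the kernel groups were separated by more than the fold minimum, and the difference was -1.25 ± 0.09 (edgeR adjusted p 5.37e-11).

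Some starch synthesis genes fell in the kernel. Of 12 starch synthesis genes, 4 fell in the kernel and none passed in the ear, and 4 differed, all lower in kernel, with a median difference of -0.72. Among all tested genes, 28.7% passed in the kernel, 7.96% in the ear and 15.0% for the difference. At that ear share, finding none among 12 genes says little. The large subunit gene AGP2 (GRMZM2G027955) of ADP-glucose pyrophosphorylase, which makes the glucose donor of starch, had 36.2 and 43.4 CPM in drought kernels, against 232 and 242 CPM in control kernels, and 731 and 734 CPM in drought ears, against 462 and 465 CPM in control ears. The kernel fell while the ear effect was 0.66 ± 0.06, and the difference was -3.24 ± 0.11 (edgeR adjusted p 6.62e-18). AGPLS3 (GRMZM2G144002) and the small subunits GRMZM2G106213 and GRMZM2G163437 differed by -1.74 ± 0.25, -1.35 ± 0.10 and -1.31 ± 0.16. The GPT2 homolog (GRMZM2G009223), for a plastid glucose-6-phosphate translocator that imports hexose phosphate, had 6.92 and 7.12 CPM in drought kernels, against 168 and 152 CPM in control kernels, and 62.1 and 65.6 CPM in drought ears, against 21.9 and 23.4 CPM in control ears. It fell in the kernel and rose in the ear without overlap in either, and the difference was -6.00 ± 0.22 (edgeR adjusted p 1.19e-18). The cell wall invertase mn1 (GRMZM2G119689) of the basal endosperm had 7.27 FPKM in drought kernels, against 38.5 FPKM in control kernels (means of 2 libraries), and no more than 0.610 FPKM in any ear library.

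Other genes of carbon use moved both ways in the kernel. In the study's kernel list of glycolysis and the TCA cycle, whose kernel directions are set by its choice, 19 of 82 genes rose and 52 fell in the kernel and 7 rose and 6 fell in the ear, and 14 differed upwards and 31 downwards in kernel. The same choice bears on the differences, called in 54.9% of the list against 15.0% of all tested genes. A homolog of the beta-amylase BAM1, a starch-degrading enzyme (GRMZM2G025833), had 107 and 107 CPM in drought kernels, against 2.31 and 1.14 CPM in control kernels, and 4.39 and 2.45 CPM in drought ears, against 1.47 and 2.62 CPM in control ears. Drought kernels alone were high, and the difference was 5.21 ± 0.55 (edgeR adjusted p 5.86e-08), or 5.82 without kernel control replicate 1. A phosphoglycerate mutase family gene (GRMZM2G050077) had 286 and 292 CPM in drought kernels, against 3.08 and 2.09 CPM in control kernels, and 19.7 and 20.6 CPM in drought ears, against 4.42 and 6.75 CPM in control ears, and an aconitase homolog (GRMZM2G171707) had 85.3 and 76.7 CPM in drought kernels, against 0.771 and 1.90 CPM in control kernels, and 36.7 and 43.8 CPM in drought ears, against 10.1 and 12.2 CPM in control ears. Both rose in both organs, with differences of 4.94 ± 0.35 and 4.04 ± 0.44, and that of the aconitase was 4.82 without kernel control replicate 2. The isocitrate dehydrogenase homolog GRMZM2G033515 differed by 3.04 ± 0.19 (edgeR adjusted p 5.45e-12). In the other direction, an aldolase homolog of glycolysis (GRMZM2G155253) had 4.24 and 6.89 CPM in drought kernels, against 40.3 and 37.4 CPM in control kernels, and 11.1 and 9.10 CPM in drought ears, against 4.78 and 4.87 CPM in control ears. It fell in the kernel only, with a difference of -3.85 ± 0.34 (edgeR adjusted p 3.77e-10). A trehalose-6-phosphate synthase homolog (GRMZM2G001304) had 5.14 and 3.56 CPM in drought kernels, against 44.2 and 59.4 CPM in control kernels, and 24.8 and 24.1 CPM in drought ears, against 14.3 and 12.2 CPM in control ears. It fell in the kernel, the ear effect of 0.88 ± 0.18 was under the fold minimum, and the difference was -4.45 ± 0.32 (edgeR adjusted p 1.94e-12). The beta-glucosidase glu1 (GRMZM2G016890), which releases defence compounds and cytokinins from their glucosides, had 107 and 115 CPM in drought kernels, against 1383 and 1484 CPM in control kernels, and 14.04 and 12.8 CPM in drought ears, against 6.99 and 10.9 CPM in control ears, with a difference of -4.28 ± 0.20 (edgeR adjusted p 8.30e-15). In the study's kernel list of sucrose and starch metabolism, 23 of 62 genes rose and 36 fell in the kernel, and 8 rose and 5 fell in the ear. There 16 differed upwards and 30 downwards in kernel, or 74.2% of the list. The choice of the list set the kernel directions and bears on these differences too.

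Cytokinin response regulators differed between the organs. Of 10 tested response regulators, 1 rose and 2 fell in the kernel and 1 rose in the ear, while 5 differed downwards and 1 upwards in kernel, with a median of -0.40 in the kernel and 0.71 in the ear. The type-A regulator RR6 (GRMZM2G129954), a homolog of ARR9 and a damper of the cytokinin signal, had 5.36 and 6.003 CPM in drought kernels, against 27.96 and 29.6 CPM in control kernels, and 12.5 and 16.4 CPM in drought ears, against 8.46 and 8.25 CPM in control ears. The kernel fell, the ear groups did not overlap but missed the criteria, and the difference was -3.13 ± 0.31 (edgeR adjusted p 2.51e-09). RR7 (GRMZM2G096171) and the ARR9 and ARR3 homologs GRMZM2G148056 and GRMZM2G179827 also fell in the kernel, with an ear effect above 0 that missed the criteria and differences of -1.83 ± 0.29, -2.31 ± 0.29 and -3.37 ± 0.35. GRMZM2G148056 and GRMZM2G179827 carry no response regulator symbol and are not among the 10. RR4 (GRMZM2G319187) differed by -1.54 ± 0.29 (edgeR adjusted p 9.28e-05), or -1.28 with an adjusted p of 0.00401 without kernel drought replicate 2. RR5 (GRMZM2G156019) rose in the ear, with 29.7 and 30.4 CPM in drought ears, against 10.7 and 12.2 CPM in control ears, and had 18.1 and 19.1 CPM in drought kernels, against 26.6 and 19.2 CPM in control kernels. Type-B regulators, which activate cytokinin targets, moved otherwise. RR9 (GRMZM2G060485), a homolog of ARR12, had 26.8 and 21.3 CPM in drought kernels, against 7.13 and 9.30 CPM in control kernels, and 49.0 and 47.1 CPM in drought ears, against 80.4 and 71.4 CPM in control ears, with a difference of 2.21 ± 0.22 (edgeR adjusted p 6.32e-09). The ARR11 homologs GRMZM2G177220 and GRMZM2G100318, likewise not among the 10, rose in both organs, with differences of 1.54 ± 0.23, which was called, and 0.16 ± 0.24, which was not.

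Cytokinin oxidases, which degrade the hormone, rose mainly in the kernel. Of 7 tested, 5 rose and 1 fell in the kernel and 1 rose in the ear, and 3 differed upwards and 2 downwards in kernel. Of all tested genes, 28.7% passed in the kernel, 7.96% in the ear and 15.0% for the difference. CKX4 (GRMZM5G817173) had 73.2 and 73.6 CPM in drought kernels, against 2.12 and 3.80 CPM in control kernels, and 4.56 and 2.98 CPM in drought ears, against 3.31 and 2.44 CPM in control ears. Drought kernels stood alone, and the difference was 4.23 ± 0.45 (edgeR adjusted p 4.44e-08). CKX10 (GRMZM2G348452) differed by 1.55 ± 0.24 (edgeR adjusted p 7.02e-06), or 1.15 with an adjusted p of 0.00153 without ear control replicate 2. CKX5 (GRMZM2G325612) rose in both organs and more in the ear. It had 27.2 and 26.7 CPM in drought kernels, against 11.8 and 7.97 CPM in control kernels, and 7.37 and 6.83 CPM in drought ears, against 0.184 and 0 CPM in control ears, at least 12.7-fold higher in drought ears. Its difference was -4.48 ± 1.45 (edgeR adjusted p 4.48e-05), and -3.65 with an adjusted p of 0.00257 without ear control replicate 2, or -6.76 without replicate 1.

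Most auxin carriers fell in the kernel. The influx carrier homolog of AUX1 (GRMZM2G127949) had 63.6 and 65.6 CPM in drought kernels, against 268 and 249 CPM in control kernels, and 104 and 96.2 CPM in drought ears, against 121 and 133 CPM in control ears, and fell only in the kernel, with a difference of -1.65 ± 0.12 (edgeR adjusted p 1.51e-11). The LAX1 homolog GRMZM2G067022 had 0.893 and 1.11 CPM in drought kernels, against 17.9 and 15.0 CPM in control kernels, and 3.33 and 2.27 CPM in drought ears, against 11.6 and 14.1 CPM in control ears, and fell in both, with no call on the difference. The LAX2 homolog GRMZM2G149481 had 4.24 and 2.45 CPM in drought kernels, against 4.43 and 3.80 CPM in control kernels, and 53.5 and 51.6 CPM in drought ears, against 116 and 119 CPM in control ears. It fell in the ear only, and its difference of 0.86 ± 0.34 (edgeR adjusted p 0.0517) was not called. Its relative GRMZM2G045057 fell at least 12.3-fold in the kernel, against 9.06 and 7.404 CPM in control kernels. Of 4 PIN efflux carriers, 3 fell in the kernel and 1 in the ear, and PIN10a (GRMZM2G126260) differed by -2.13 ± 0.22 (edgeR adjusted p 1.87e-08). The carrier gene GRMZM2G050089 had effects of 0.93 ± 0.09 in the kernel and 0.95 ± 0.13 in the ear, both under the fold minimum, and a difference of -0.02 ± 0.16.

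Aux/IAA repressors went both ways, with 5 of 16 risen and 3 fallen in the kernel and 2 risen and 1 fallen in the ear. AUX10 (GRMZM2G057067) had 71.9 and 81.6 CPM in drought kernels, against 4.82 and 5.505 CPM in control kernels, and 6.85 and 8.05 CPM in drought ears, against 10.1 and 8.81 CPM in control ears, with a difference of 4.23 ± 0.30 (edgeR adjusted p 6.92e-12). AUX14 (GRMZM2G077356) fell in the kernel only, with 24.8 and 26.5 CPM in drought kernels, against 119 and 121 CPM in control kernels, and differed by -2.08 ± 0.15 (edgeR adjusted p 2.19e-11). Of the IAA3 homologs, GRMZM2G115357 had 45.8 and 48.02 CPM in drought kernels, against 11.4 and 13.7 CPM in control kernels, and 138 and 140.0 CPM in drought ears, against 21.7 and 22.3 CPM in control ears, and rose in both organs, while AUX32 (GRMZM2G152796) rose in the ear only, with 2.90 and 5.56 CPM in drought kernels, against 10.03 and 7.97 CPM in control kernels, and 12.6 and 10.5 CPM in drought ears, against 3.13 and 1.12 CPM in control ears and a difference of -3.51 ± 0.52 (edgeR adjusted p 1.82e-06), or -4.42 without ear control replicate 1. The IAA7 homolog AUX15 (GRMZM2G079200) rose in both. Its difference of 1.79 ± 0.38 (edgeR adjusted p 3.64e-04) lost the call when any of 6 libraries was left out, with an adjusted p of up to 0.00311 without ear control replicate 1. The auxin-binding protein gene GRMZM2G078508 fell in the ear and had 23.2 and 24.9 CPM in drought kernels, against 24.1 and 19.6 CPM in control kernels. Its difference was 1.25 ± 0.23 (edgeR adjusted p 7.65e-05), and 1.13 with an adjusted p of 0.00159 without ear drought replicate 2. Of 17 auxin response factors, 4 fell and 1 rose in the kernel and 1 fell in the ear, near the shares of all tested genes (28.7% in the kernel and 7.96% in the ear).

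In ethylene signaling, EIN3 homologs, the transcription factors at the end of the pathway, rose in both organs. GRMZM2G033570 had 476 and 487 CPM in drought kernels, against 85.8 and 86.6 CPM in control kernels, and 191 and 189.5 CPM in drought ears, against 71.7 and 74.8 CPM in control ears, and the difference of 1.10 ± 0.10 (edgeR adjusted p 2.73e-09) was called. GRMZM2G317584 rose as well, with a difference of 0.57 ± 0.09 (edgeR adjusted p 2.30e-05) under the fold minimum. The S-adenosylmethionine synthetase homolog GRMZM2G054123, whose product is the methyl donor and the precursor of ethylene, had 164 and 169.9 CPM in drought kernels, against 551 and 479 CPM in control kernels, and 188 and 196 CPM in drought ears, against 72.5 and 69.5 CPM in control ears. Kernels fell and ears rose, with a difference of -3.06 ± 0.11 (edgeR adjusted p 3.42e-17). The RAV1 homolog GRMZM2G059939 had 68.5 and 70.3 CPM in drought kernels, against 0.579 and 0.759 CPM in control kernels, and 3.86 and 5.25 CPM in drought ears, against 3.31 and 3.19 CPM in control ears, and differed by 6.16 ± 0.59 (edgeR adjusted p 1.74e-10). Brassinosteroid signaling kinases fell in the kernel only. The signaling kinases GRMZM2G054634 and GRMZM2G169080, homologs of BSK2, differed by -1.40 ± 0.19 (edgeR adjusted p 6.17e-07) and -1.53 ± 0.18 (edgeR adjusted p 8.66e-08), and the receptor homolog of BRI1 (GRMZM2G048294) had a kernel effect of -0.91 ± 0.07, an ear effect of -0.06 ± 0.07 and a difference of -0.84 ± 0.10, each under the fold minimum.

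Of the jasmonate regulators, TIFY factors, most of which repress jasmonate targets, passed the criteria about as often as all tested genes (28.7% in the kernel and 7.96% in the ear). In the kernel 4 of 15 rose, and 1 fell in the ear. The fitted difference was above 0 in 14 of 15, with a median of 0.79 that was 0.31 on the log2(FPKM + 1) scale, and a single one was called. That gene, TIFY15 (GRMZM2G005954), had 31.3 and 24.2 CPM in drought kernels, against 10.03 and 8.92 CPM in control kernels, and 8.78 and 11.2 CPM in drought ears, against 23.6 and 28.1 CPM in control ears, and so rose in the kernel and fell in the ear, with a difference of 2.92 ± 0.27 (edgeR adjusted p 1.61e-09). A homolog of the jasmonate receptor COI1 (GRMZM2G035314) differed by 1.58 ± 0.25 (edgeR adjusted p 1.29e-05), with 56.9 and 56.5 CPM in drought kernels, against 9.06 and 10.8 CPM in control kernels. The TGA4 homolog bZIP113 (GRMZM2G445575) had 55.4 and 56.5 CPM in drought kernels, against 7.52 and 5.88 CPM in control kernels, and 2.11 and 2.98 CPM in drought ears, against 4.60 and 5.62 CPM in control ears, with a difference of 4.06 ± 0.38 (edgeR adjusted p 1.51e-09). A MYB44 homolog (GRMZM2G145444), a factor of stress and ABA responses, went the opposite way, with 26.6 and 27.4 CPM in drought kernels, against 87.3 and 74.6 CPM in control kernels, and 108 and 102 CPM in drought ears, against 26.7 and 26.4 CPM in control ears and a difference of -3.57 ± 0.16 (edgeR adjusted p 1.41e-15). A homolog of the GRAS factor PAT1 (GRMZM2G098517) rose in the ear only, with 5.81 and 5.56 CPM in drought kernels, against 9.83 and 9.30 CPM in control kernels, and 31.4 and 30.6 CPM in drought ears, against 4.97 and 4.50 CPM in control ears.

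Light-harvesting genes rose mainly in the ear. Of 4 light-harvesting protein genes found by symbol, 3 rose in the ear and 1 fell in the kernel, and 3 differed, all lower in kernel. The antenna gene lhcb6 (GRMZM2G092427) had 34.2 and 33.4 CPM in drought kernels, against 161 and 120.0 CPM in control kernels, and 49.5 and 50.6 CPM in drought ears, against 16.7 and 19.7 CPM in control ears. It fell in the kernel and rose in the ear without overlap in either, and the difference was -3.51 ± 0.20 (edgeR adjusted p 1.38e-13). The gene lhcb3 (GRMZM2G155216) had 52.2 and 57.6 CPM in drought kernels, against 117 and 95.5 CPM in control kernels, and 112 and 117 CPM in drought ears, against 31.3 and 31.3 CPM in control ears, with a difference of -2.83 ± 0.15 (edgeR adjusted p 5.51e-14). The chlorophyll a/b protein gene lhcb7 (GRMZM2G402936) rose in the ear, with 212 and 227 CPM in drought ears, against 42.3 and 52.3 CPM in control ears, and had 290.5 and 305 CPM in drought kernels, against 176 and 142 CPM in control kernels. Of 17 tested antenna genes on a list that the study chose on the ear leaf, and that was added here after values were seen, 10 rose and none fell in the ear. In the kernel 2 rose and 3 fell, and 8 differed, all lower in kernel. The leaf marker sum above, which shares lhcb3 and lhcb6 with these genes, moved with them in both organs.

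Aquaporins, which pass water through membranes, were split among themselves. Of 18 tested, 4 rose and 5 fell in the kernel and 3 fell in the ear. Of these, 3 differed upwards and 2 downwards in kernel, or 27.8% against 15.0% of all tested genes. The median difference was 0.30, and its sign turned under another scaling. The plasma membrane gene pip2b (GRMZM2G092125) had 750.5 and 775 CPM in drought kernels, against 340.2 and 283 CPM in control kernels, and 111 and 109 CPM in drought ears, against 156 and 154 CPM in control ears, with a difference of 1.79 ± 0.11 (edgeR adjusted p 6.47e-13). The NIP1-1 gene (GRMZM2G041980) had 97.4 and 95.2 CPM in drought kernels, against 342 and 293 CPM in control kernels, and 62.8 and 67.0 CPM in drought ears, against 50.8 and 53.2 CPM in control ears. The first was highest in drought kernels and the second in control kernels, with a difference of -2.04 ± 0.13 (edgeR adjusted p 2.14e-12) for the second.

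The counts for families of developmental regulators stand against 28.7% of all tested genes past the criteria in the kernel and 7.96% in the ear. Of 28 MADS factors, 3 rose and 1 fell in the kernel and none passed in the ear, and of 9 KNOX factors 1 fell in the kernel and 1 rose and 1 fell in the ear. Of 21 SBP factors, which include ear branching regulators, 9 fell in the kernel and 3 in the ear, and 3 differed downwards and 1 upwards in kernel. Among meristem genes, ub2 had 1.98 FPKM in drought kernels, against 8.19 FPKM in control kernels, and 29.6 FPKM in drought ears, against 41.2 FPKM in control ears (means of 2 libraries). The receptor gene fea3 had 10.5 FPKM in drought kernels, against 46.3 FPKM in control kernels, and 93.6 FPKM in drought ears, against 74.7 FPKM in control ears. Both fell in the kernel with a called difference, of -1.28 and -2.13. They were picked after values were seen from the 20 ear marker genes, of which 4 fell and none rose in the kernel and 2 fell and none rose in the ear. Among the others, fea2, fea4 and zap1 had kernel effects of 0.68, 0.93 and 0.56, none past the criteria. Of 13 genes of the endosperm transfer layer and embryo-surrounding region, 9 passed the filter on low counts. Among the 9 tested, 7 rose in the kernel, with a median of 2.75, and none passed in the ear. Of these, betl1, betl2 and esr3 were at 0 in every ear library, so their ear effect of 0 reflects absent expression and compares nothing. Low levels also decided what was tested, as betl1 entered only through the drought kernels (4.94 and 8.38 FPKM, against 0 and 0.48 FPKM in control kernels). The filter therefore shaped the count of 7 and the kernel median. The single called difference was that of mrp1 (GRMZM2G113203), a MYB-related activator of transfer cell genes, which had 2.40 and 2.30 FPKM in drought kernels, against 1.46 and 1.84 FPKM in control kernels, and 0.30 and 0.20 FPKM in drought ears, against 0.67 and 0.59 FPKM in control ears. Its difference of 2.16 ± 0.52 (edgeR adjusted p 9.57e-04) lay just inside the criterion although neither organ passed alone. The esr1 copy GRMZM2G046086, from the cells around the embryo, had 22.3 and 31.1 FPKM in drought kernels, against 2.77 and 5.11 FPKM in control kernels, and at most 0.350 FPKM in any ear library. The basal endosperm invertase gene mn1, outside the 9, fell in the kernel, with an effect of -2.23. Of the remaining families, WRKY factors had 3 risen and 2 fallen of 17 in the kernel, near the share of all tested genes, and none in the ear. Glutathione S-transferases had 5 risen and 8 fallen of 22 in the kernel and 1 each way in the ear, and lipoxygenases had 1 risen and 3 fallen of 11 in the kernel and none in the ear.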

How the data were processed

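RNA-seq was analysed from 8 libraries of kernel and young ear, 2 per group. The authors deposited expected counts, the estimated number of reads of each gene with no normalization, and 46.8% of the values above 0 were not whole numbers. FPKM values were also deposited by the authors and relate those estimates to gene length and mapped reads. Each file lists gene length too. The aligner and annotation are not given in the sources used here.

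Expected counts were rounded and fitted with edgeR 4.0.16 (R 4.3.3) as 1 model of 4 groups with TMM factors (0.873 to 1.119) after filterByExpr, which kept 24797 genes. The quasi-likelihood F test was adjusted by Benjamini-Hochberg over these genes, with criteria of 0.001 and an absolute log2 of 1. There were 4 residual and 20.6 prior degrees of freedom. Alternatives used DESeq2 1.42.0, limma 3.58.1, other scalings and filters, and each library left out.

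Named genes were the 6 largest differences in each direction (average of at least 50 counts, at least 3 in every library), the 3 largest at the floor of 3 counts, the 5 steepest shared and opposite genes in each direction, genes named in the study's Results, and up to 4 members of each list described. The mn1, fea3, ub2 and esr1 values, and the light-harvesting list chosen on the ear leaf, were added after values were seen. Families were gathered from RefSeq symbols (assembly Zm-B73-REFERENCE-NAM-5.0), with 18529 file IDs matched, 503 of them to more than 1 RefSeq gene, and Arabidopsis names are best hits listed by the study. Members, lists and tests were chosen with earlier results of these data known. Same-numbered libraries of different groups did not deviate together (correlations of -0.087 to 0.021).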

Additional observations from a re-analysis of the deposited data

Results flagged for a closer look

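The drought effect differed between kernel and ear in 3717 genes by the test of the difference itself, which is the result the report describes. Among the genes named, 24 passed the criteria in both organs with opposite signs and differed by the same test.

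Those that rose in the kernel and fell in the ear had kernel minus ear log2 differences of 13.64 for AC199182.3, 11.75 for GRMZM2G116858, 11.32 for GRMZM2G014705, 8.65 for rip2 (GRMZM2G119705), 7.25 for GRMZM2G131421 and 6.48 for GRMZM2G181607. In the same direction, the difference was 2.92 for TIFY15 (GRMZM2G005954) and 2.70 for the NAC047 homolog (GRMZM2G134073). In AC199182.3 and GRMZM2G014705 both drought ear libraries were at 0, so that the size of the fitted difference depends on the prior count.

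Those that fell in the kernel and rose in the ear, and had no named product, had differences of -8.22 for GRMZM2G403007, -7.81 for GRMZM2G125850, -7.41 for GRMZM2G392125, -7.15 for GRMZM2G097884, -7.02 for GRMZM2G079805, -4.57 for GRMZM2G095798 and -4.43 for GRMZM2G330635. Transporter and wall genes of this direction were the MATE gene GRMZM5G842695 with -6.07, the GPT2 homolog GRMZM2G009223 with -6.00, the glucan synthase homolog GRMZM2G110145 with -3.98, the expansin B4 homolog GRMZM2G056236 with -3.79 and EXPA5 (GRMZM2G361064) with -3.08. The other 4 were the MYB44 homolog GRMZM2G145444 with -3.57, lhcb6 (GRMZM2G092427) with -3.51, the S-adenosylmethionine synthetase homolog GRMZM2G054123 with -3.06 and the ABAR homolog GRMZM2G323024 with -2.85. Groups of 2 libraries are too small for a test of single outlying libraries.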

How the results depend on the processing

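No called value changed direction under any alternative, while several differences of named genes that were not called and some list medians did. Without TMM factors the median difference was -0.02 in aquaporins and -0.26 in heat shock factors, against 0.30 and 0.06 with them. A stricter test against a log2 of 1 (glmTreat) called 1398 differences between organs (570 higher and 828 lower in kernel), 3815 genes in kernel, 603 in ear, 357 shared and 14 opposite. An adjusted p under 0.05 with no minimum called 10349 differences (5065 and 5284), 15583 genes in kernel, 9657 in ear, 5948 shared and 1242 opposite. Without TMM factors 1054 differences were higher and 3282 lower in kernel (4336 in all), and with log2(FPKM + 0.1) 752 were higher in kernel, with 1215 genes in ear and 714 shared. The other settings gave between 2826 and 3861 differences. The replicate numbers do not pair the libraries, and a replicate block gave 3825 differences, 3705 of them among the main calls. Leaving out each library in turn gave between 2994 and 3434 differences, between 5949 and 6992 genes in kernel, between 1542 and 1980 in ear, between 912 and 1063 shared and between 66 and 78 opposite.

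Of the 3717 differences, 3585 remained with all 12 libraries in the fit, 3212 with DESeq2, 3406 with limma voom and 3076 without TMM factors, none with the opposite sign. Each group has 2 libraries, so the spread was pooled over the groups although control kernels varied more. Fitted differences of genes with a group at 3 counts or fewer depend on the prior count.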
